A study of Hordeum vulgare with 24 samples.

Results

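A set of 30 barley genes stood at least 2-fold lower in warm-grown than in cool-grown young spikes in every setting of this study, out of 39734 gene identifiers counted and 27383 with at least 1 read. The genes were chosen by their measured levels. For each gene, the mean CPM (counts scaled to the total of the library) of a cool group plus 0.5 was divided by that of the matching warm group plus 0.5. A gene was kept where this ratio was 2 or more in all 4 settings, that is in wild-type and in mutant spikes at each of 2 stages. The difference between temperatures is therefore a description of how the genes were chosen, and no test is given for it. The rule left out 1 warm wild-type library, described below.

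The study sequenced RNA from inflorescences (young spikes) of Golden Promise, a spring barley cultivar. Wild-type plants (WT) and plants mutant for HvMADS1 (mads1), both in Golden Promise, were grown in a cool regime, LT, of 15 °C in the light and 10 °C in the dark, or in a warm regime, HT, of 25 °C and 20 °C, under a 16 h photoperiod. Spikes were collected at stages W2.5 and W3.5 of the Waddington scale, which orders barley spikes by the organs they have formed rather than by age. This gave 8 groups of 3 libraries: WT and mads1, each at LT and HT, each at W2.5 and W3.5. Each library was made from a pool of 15 to 20 spikes and is labelled as a biological replicate, so a library averages over spikes. The kind of mutation, the number of mutant lines, the age of the plants and the time of day of sampling are not stated in the labels. A spike holds many cell types, and in such bulk samples fewer cells of a type and less RNA per cell cannot be told apart.

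Around W2.5 the spikelet meristems of the barley spike begin to form organs, and by W3.5 floral organ primordia, among them those of the stamens, are forming. HvMADS1 encodes a transcription factor of the SEPALLATA type, proteins that act together with other MADS-box proteins in the identity of floral meristems and floral organs. Ambient temperature is known to alter the pace of barley spike development and the form of the spike. Neither the deposited files nor the reference table at hand pairs the gene identifiers with names or functions. The 30 genes are therefore given by identifier, with no role, and the cell types of the spike could not be checked by markers.

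Library totals ran from 13283533 to 19864259 counted reads, so that 3 reads stood for 0.151 to 0.226 CPM. The library WT_HT_W2.5 replicate 3 stood apart from the other 23. Its scaling factor (TMM) was 0.575, against 0.959 to 1.08 in the others, and it reached a rank correlation of 0.921 at most with another library, against 0.948 or more between any pair of the others. Its 100 most abundant genes took 26.9% of its counts, against 14.5% to 19.0% elsewhere. The values below leave it out unless they say otherwise, so that WT_HT_W2.5 rests on 2 libraries. The mutated gene checks the labels only in part, since no file at hand pairs an identifier with HvMADS1. HORVU4Hr1G067680, taken here as HvMADS1 from general knowledge and not checked by sequence, stood at 63.2 to 67.7 CPM in WT and at 0, 0.334 and 12.8 CPM in mads1 at HT W3.5, where mads1 replicate 3 stood apart. At LT the mads1 libraries read lower than WT at both stages without being at 0 (14.1 to 23.5 against 39.1 to 43.4 CPM at W2.5, and 43.8 to 49.1 against 59.4 to 65.8 at W3.5), and at HT W2.5 the genotypes overlapped.

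Each of the 4 ratios was at least 2 for few genes: 0.461% of the 39734 identifiers in WT at W2.5, 0.561% in WT at W3.5, 0.732% in mads1 at W2.5 and 2.35% in mads1 at W3.5. All 4 together held for the 30 genes, or 0.0755%. The mirrored rule, for genes higher in warmth in every setting, held for 56 genes. Over the 30 genes the median LT/HT ratio was 2.54 in WT at W2.5 (2.01 to 6.07), 3.04 in WT at W3.5 (2.13 to 7.29), 2.87 in mads1 at W2.5 (2.12 to 5.60) and 4.53 in mads1 at W3.5 (2.10 to 37.4). Over the 16260 genes with a mean of 1 CPM or more at LT the same medians were 1.00, 1.03, 1.00 and 1.01. The fall in warmth was largest in mads1 at W3.5 for 19 of the 30 genes and smallest in WT at W2.5 for 18 of them. These were also the settings with the highest (2.35%) and lowest (0.461%) shares of all identifiers at a ratio of 2 or more. For 29 of the 30 genes the LT and HT libraries did not overlap in any of the 4 settings. In HORVU6Hr1G001160 they overlapped in WT at W2.5. For 16 genes every one of the 12 LT libraries read higher than every one of the 11 HT libraries. Both counts rest on the values that chose the genes, so they only describe the choice. The share over all genes was not counted.

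**Figure D1:**
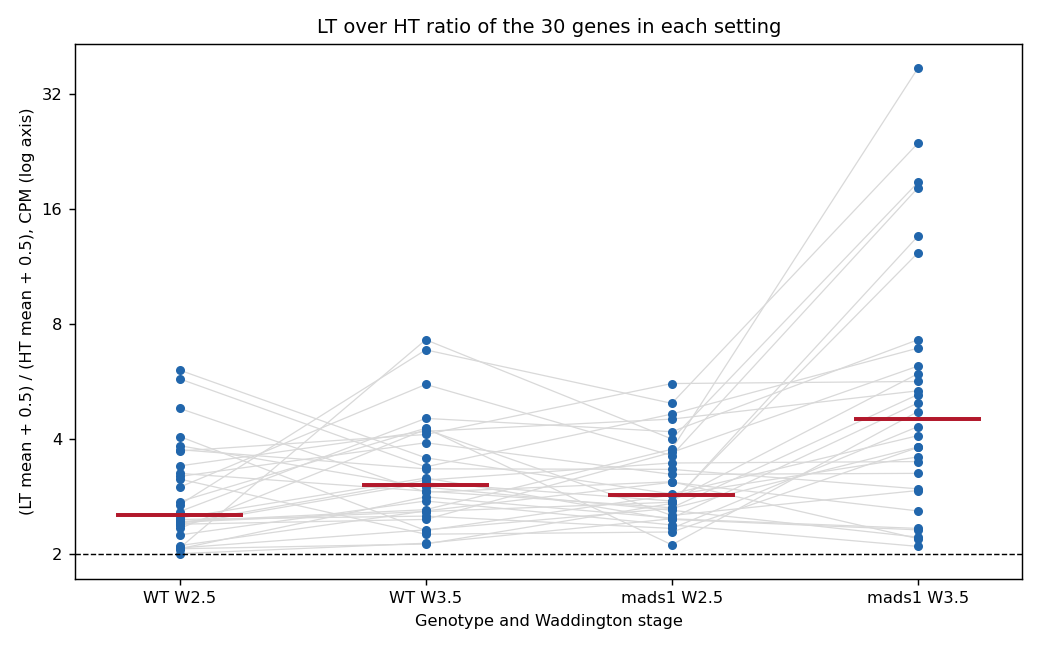
LT/HT ratio of the 30 genes in each genotype and stage, with 0.5 CPM added to both means, on a log axis. Each point is 1 gene, grey lines join the values of a gene, red bars are medians and the dashed line is the ratio of 2 that every gene had to reach. The medians are 2.54, 3.04, 2.87 and 4.53 from left to right, and the highest value, 37.4, is in mads1 at W3.5.

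These genes were mostly of modest level in cool spikes. Their mean over the 4 LT groups ran from 1.17 to 60.1 CPM with a median of 9.07, and 4 of them stood above 22.7 CPM, the median of the 16260 genes. At LT, 12 genes stood at 10 CPM or more, 7 at 5 to 10 and 11 below 5. Over the 4 HT groups the means ran from 0.192 to 17.7 CPM with a median of 1.55. Per length, in FPKM, the median level at LT was 5.31 for the 30 genes and 14.2 for the 16260. By this scale HORVU3Hr1G026540 led at 83.1 FPKM at LT and 14.6 at HT, and HORVU5Hr1G074170 was last at 0.683 FPKM at LT. In 4 genes at least 1 HT library had no read, with 3 such libraries for HORVU2Hr1G036680.

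**Figure D2:**
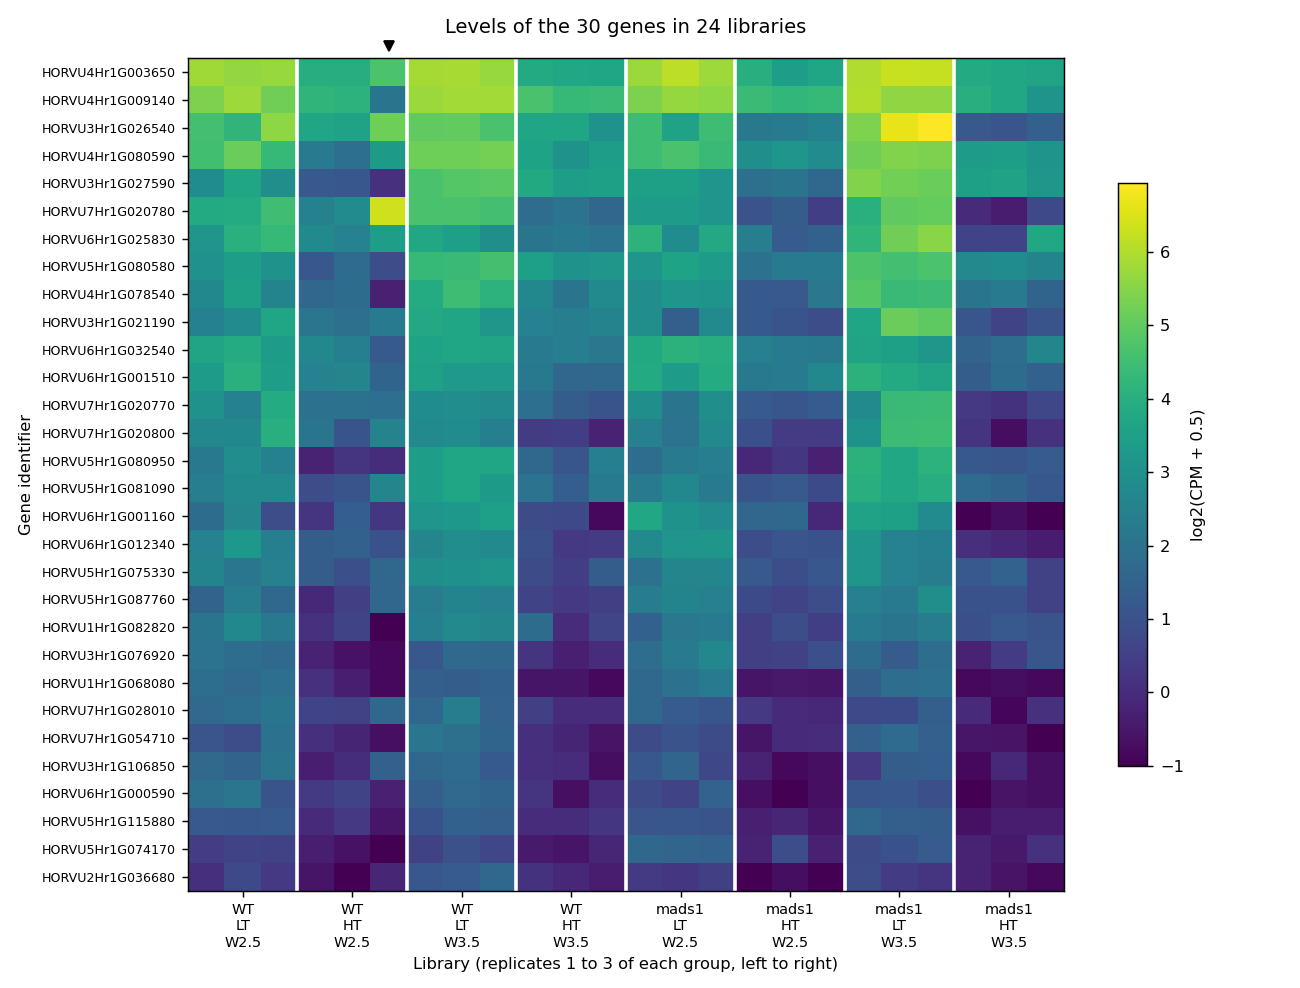
Level of the 30 genes (rows, by falling LT level) in all 24 libraries (columns, in 8 groups of 3), as log2(CPM + 0.5). The triangle marks WT_HT_W2.5 replicate 3, which the rule left out. In each pair of neighbouring groups the LT columns are brighter than the HT columns, and HORVU7Hr1G020780 is bright in the marked library, at 82.5 CPM.

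HORVU4Hr1G003650 had the highest mean at LT and a ratio of at least 3.41 in every setting. Its LT libraries read 55.2, 49.8 and 52.0 CPM in WT at W2.5, 57.9, 59.6 and 52.4 in WT at W3.5, 53.6, 70.0 and 54.4 in mads1 at W2.5, and 63.4, 77.2 and 75.1 in mads1 at W3.5. Its HT libraries read 15.0 and 15.0 in WT at W2.5, 13.8, 12.9 and 12.5 in WT at W3.5, 15.7, 10.4 and 12.1 in mads1 at W2.5, and 13.8, 13.1 and 12.0 in mads1 at W3.5. All HT libraries used by the rule thus lay within 10.4 to 15.7 CPM whatever the genotype and stage, and the lowest LT library stood at 49.8. The left-out WT_HT_W2.5 replicate 3 read 25.5 CPM. The ratios were 3.41, 4.20, 4.52 and 5.36 in the order WT W2.5, WT W3.5, mads1 W2.5 and mads1 W3.5, an order kept below.

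HORVU4Hr1G009140 was next in level and had the highest mean at HT. At LT it read 41.1, 54.1 and 36.9 CPM in WT at W2.5, 52.5, 56.3 and 56.3 in WT at W3.5, 40.8, 51.0 and 48.1 in mads1 at W2.5, and 64.9, 48.9 and 48.4 in mads1 at W3.5. At HT it read 17.9 and 17.2 in WT at W2.5, 24.5, 19.6 and 20.6 in WT at W3.5, 20.7, 18.6 and 19.5 in mads1 at W2.5, and 15.6, 12.7 and 8.07 in mads1 at W3.5. The LT libraries lay within 36.9 to 64.9 CPM, and the mads1 HT W3.5 libraries were the lowest of those used by the rule. The left-out WT_HT_W2.5 replicate 3 read 3.76 CPM. The ratios were 2.47, 2.52, 2.34 and 4.32.

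HORVU1Hr1G068080 had the largest value of its smallest ratio, 3.73, at a low level. It read 2.03 to 4.21 CPM over the 12 LT libraries and 0.0570 to 0.600 over the 11 HT libraries, with group means of 0.450 ± 0.211 (SD, n = 2) in WT at HT W2.5 and 0.220 over the 4 HT groups. Its HT groups rested on few reads, such as 4 reads in mads1 and 7 in WT at HT W3.5, against 139 and 118 at LT W3.5. From these reads the LT/HT ratio at W3.5 was 33.3 in mads1 (95% interval 12.7 to 124) and 15.3 in WT (7.20 to 38.9), which cover counting error only. With 0.5 CPM added to both means, as in the rule, the same ratios were 5.67 and 4.12. Besides this gene and HORVU4Hr1G003650, a ratio of 3 or more in every setting was reached by HORVU5Hr1G080950 (smallest 3.39) and HORVU5Hr1G087760 (smallest 3.20).

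Other genes differed by setting. HORVU4Hr1G080590 had its largest ratio in WT at W2.5, at 6.07, where it read 22.7, 34.4 and 19.3 CPM at LT and 4.32 and 3.24 at HT. Its other ratios were 3.58, 2.88 and 4.09. HORVU3Hr1G026540 had ratios of 2.44, 2.62 and 3.77 and then 37.4 in mads1 at W3.5. HORVU7Hr1G020780 followed at 23.8 in that setting, HORVU6Hr1G001160 at 18.8, HORVU7Hr1G020800 at 18.2, HORVU3Hr1G021190 at 13.6 and HORVU7Hr1G020770 at 12.3. This order depends on the 0.5 CPM added, since HORVU6Hr1G001160 and HORVU7Hr1G020800 stood at 0.0371 and 0.462 CPM in mads1 at HT W3.5. From reads, 482 at LT and 2 at HT, the ratio of HORVU6Hr1G001160 was 231 (95% interval 63.6 to 1912, counting error only). By the rule the other 24 genes lay between 2.10 and 7.29 in mads1 at W3.5. Of these, HORVU6Hr1G025830 had its 6.22 through mads1_HT_W3.5 replicate 3, which read 12.7 CPM against 1.02 and 1.00. Without that library it stood at 22.3. Leaving out 1 library moved 3 other ratios by over 1.5 times. These were HORVU7Hr1G020800 in WT at W2.5 (3.00, and 4.58 without WT_HT_W2.5 replicate 1), HORVU6Hr1G001160 in WT at W2.5 (2.08, and 3.39 without WT_HT_W2.5 replicate 2) and HORVU1Hr1G082820 in WT at W3.5 (3.00, and 4.69 without WT_HT_W3.5 replicate 1).

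**Figure D3:**
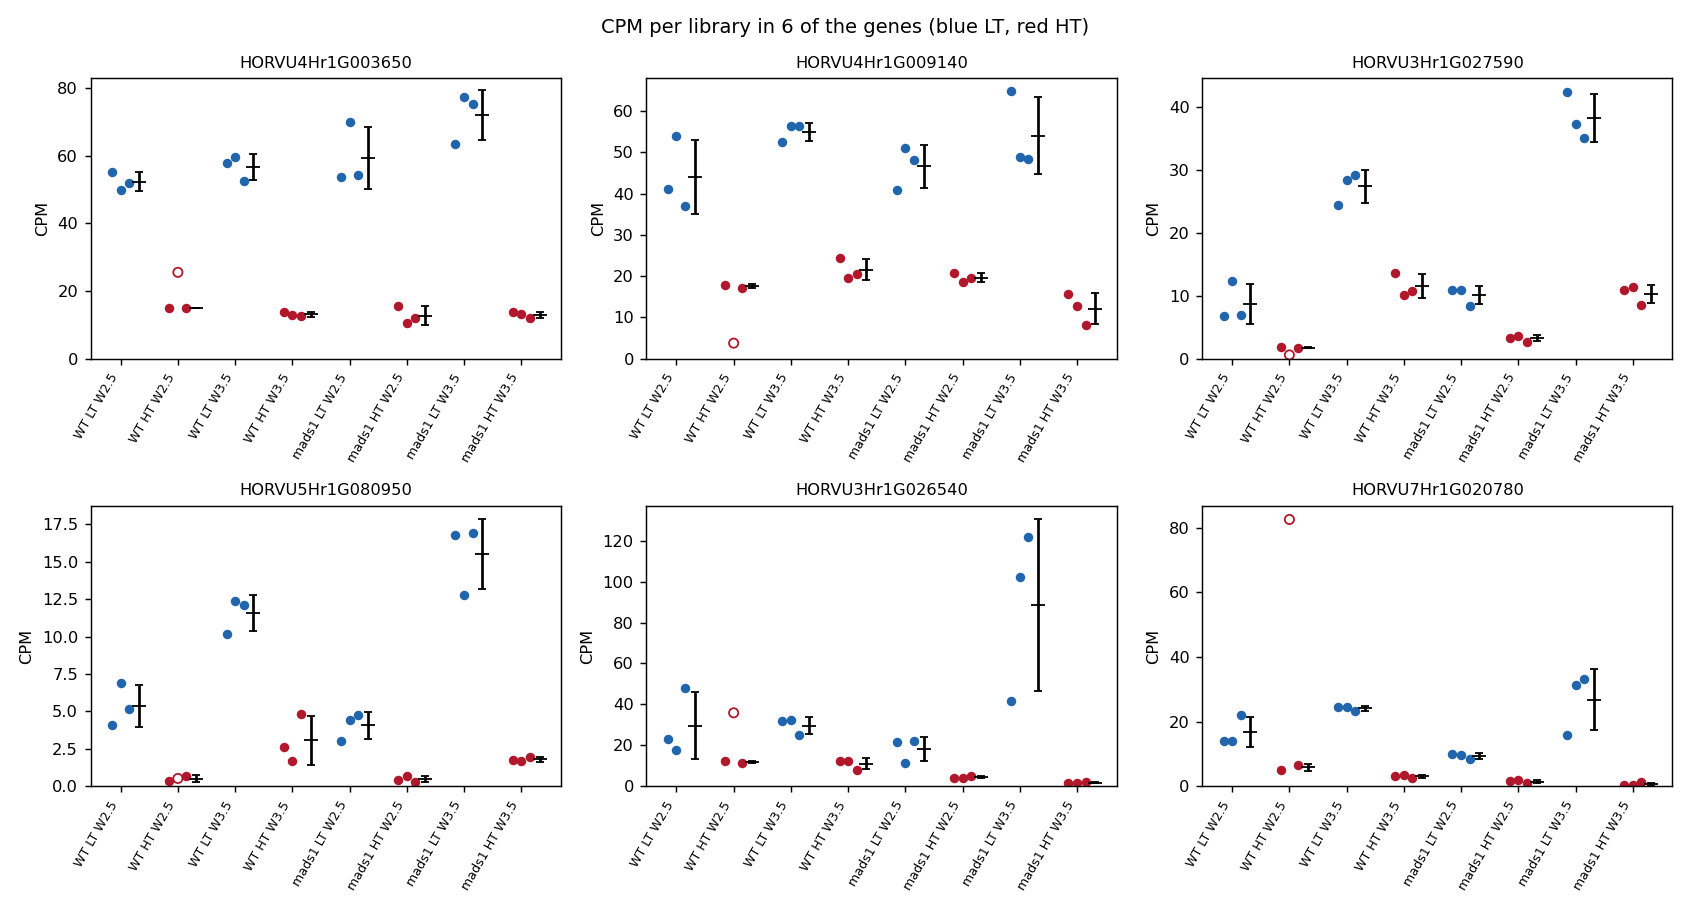
CPM per library of 6 of the 30 genes in the 8 groups, LT in blue and HT in red, each panel from 0. Black bars are the group mean ± SD over 3 libraries (2 for WT HT W2.5), and the open circle is WT_HT_W2.5 replicate 3, which is outside the mean. In HORVU4Hr1G003650 all red points but that one lie within 10.4 to 15.7 CPM, while in HORVU3Hr1G026540 the mads1 LT W3.5 libraries spread from 41.6 to 122 CPM.

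The threshold cut through a continuous range, and 8 of the 30 genes had a smallest ratio under 2.2. Among genes at 5 CPM or more at LT, HORVU6Hr1G001510 (2.0652) and HORVU3Hr1G021190 (2.0690) lay just inside it, both by their value in WT at W2.5. HORVU3Hr1G010290 lay just outside at 1.9905 in WT at W2.5, with other ratios of 2.03, 2.11 and 2.03 and mean levels of 20.4 CPM at LT and 9.72 at HT. HORVU4Hr1G071250 lay outside at 1.9804 in mads1 at W2.5, with 5.30 and 1.92 CPM. Leaving out 1 library at a time from the group means kept between 25 and 33 genes, and 17 of the 30 stayed in under all 23 such rules.

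The library left out of the rule is described here against WT_LT_W2.5, whose own high values helped to choose the genes, so the comparison is no independent check. On unscaled CPM it read below all 3 WT_LT_W2.5 libraries for 25 of the 30 genes, within their range for 4 and above them for HORVU7Hr1G020780, and below all 3 for 67.2% of the 16260 genes at 1 CPM or more. The WT_LT_W2.5 mean was at least 2-fold above it for 19 of the 30 genes, or 63.3%, and the same held for 48.0% of the 16260 genes. Against the other WT_HT_W2.5 libraries it read higher than both for 13 genes, lower than both for 15 and between them for 2. This split was not counted over all genes, so it cannot be read as a trait of the 30. HORVU7Hr1G020780 stood at 82.5 CPM in the left-out library against 5.16 and 6.55 in the other 2, and HORVU3Hr1G026540 at 35.9 against 12.2 and 11.4. With this library in the group mean the rule kept 30 genes, of which 23 were the same. The 7 that dropped out then had WT W2.5 ratios of 0.538 (HORVU7Hr1G020780), 1.48 (HORVU3Hr1G026540), 1.81 (HORVU7Hr1G028010), 1.91 (HORVU5Hr1G081090), 1.92 (HORVU2Hr1G036680), 1.95 (HORVU6Hr1G025830) and 1.97 (HORVU3Hr1G021190).

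The rule used neither the place of the genes nor their length. By the chromosome digit of the identifiers, whose genome build no label states, 7 genes lay on chromosome 5 (23.3%, against 15.6% of the 16260 genes). Chromosome 6 held 6 genes (20.0% against 11.2%), and chromosomes 3 and 7 held 5 each (16.7%, against 14.9% and 14.2%). Chromosome 4 held 4 (13.3% against 12.4%), chromosome 1 held 2 (6.67% against 12.2%) and chromosome 2 held 1 (3.33% against 16.2%). These shares were not tested. No identifier lay between members in 1 place only, where HORVU7Hr1G020770, HORVU7Hr1G020780 and HORVU7Hr1G020800 followed each other in the table. The identifiers on either side had at most 4 reads over all libraries. Their group means in WT fell from 9.06 ± 4.79 CPM at LT to 3.44 ± 0.0312 at HT at W2.5 for HORVU7Hr1G020770, from 16.7 ± 4.60 to 5.85 ± 0.984 for HORVU7Hr1G020780 and from 9.04 ± 5.27 to 2.68 ± 1.55 for HORVU7Hr1G020800 (SD, n = 3 at LT and 2 at HT). Whether they are copies of one another could not be checked, nor how reads shared by near-identical copies were counted. The next nearest pair, HORVU5Hr1G080950 and HORVU5Hr1G081090, had 9 identifiers between its members. Gene lengths, recomputed from counts and FPKM, ran from 499 to 2617 bases with a median of 1461, against 1569 for the 16260 genes.

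The stage of the spike and the genotype are contrasts that the rule did not use, but every group mean compared below entered a ratio that chose the genes. The rule favoured high LT and low HT values. The number and direction of calls in the set are therefore not independent of the choice. None of the 30 genes was removed by the filter for low counts, which a gene can pass by its LT libraries alone. They were tested among 18722 genes with edgeR's quasi-likelihood test. A gene was called at a Benjamini-Hochberg adjusted p under 0.05 over all of these. In these tests 20 of the 30 genes were called in at least 1 of 8 comparisons, where 51.3% of all tested genes were. Of these, 15 were called between stages (37.6% of all genes), 16 between genotypes (36.5%) and 11 in both (22.8%).

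From W2.5 to W3.5, 3 of the 30 genes rose in all 4 combinations of genotype and temperature, where 0.523% of all tested genes were called higher in all 4. HORVU3Hr1G027590 read 6.75, 12.4 and 7.01 CPM at W2.5 and 24.5, 28.4 and 29.3 at W3.5 in WT at LT, and 1.80 and 1.73 against 13.7, 10.2 and 10.8 at HT. In mads1 it read 11.0, 11.0 and 8.43 against 42.5, 37.3 and 35.1 at LT, and 3.31, 3.66 and 2.70 against 10.9, 11.4 and 8.60 at HT. The stages did not overlap in any of the 4, and the warm W3.5 libraries reached the level of the cool W2.5 libraries. The log2 fold changes were 1.62 (SE 0.19, edgeR adjusted p = 2.0e-05) and 2.70 (SE 0.27, 2.3e-06) in WT at LT and HT, and 1.90 (SE 0.18, 1.4e-06) and 1.68 (SE 0.21, 8.7e-06) in mads1.

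HORVU5Hr1G080950 read 4.08, 6.87 and 5.15 CPM at W2.5 and 10.2, 12.4 and 12.1 at W3.5 in WT at LT, and 0.360 and 0.678 against 2.66, 1.70 and 4.85 at HT. In mads1 it read 3.04, 4.44 and 4.76 against 16.8, 12.8 and 16.9 at LT, and 0.429, 0.697 and 0.321 against 1.76, 1.67 and 1.98 at HT. Again no stages overlapped, and of the HT libraries at W3.5 only the WT library at 4.85 reached the range of the LT libraries at W2.5. The log2 fold changes were 1.08 (SE 0.27, edgeR adjusted p = 0.025) at LT and 2.59 (SE 0.45, 8.1e-04) at HT in WT, and 1.91 (SE 0.27, 1.1e-04) and 1.89 (SE 0.41, 0.0017) in mads1. The call in WT at LT was lost without replicate 1 or 3 of W2.5 or replicate 2 or 3 of W3.5.

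HORVU5Hr1G080580 stood at 8.44 ± 1.45 CPM (SD) at W2.5 and 21.1 ± 2.27 at W3.5 in WT at LT (log2 change 1.28, SE 0.16, edgeR adjusted p = 5.7e-05), and at 2.34 ± 0.846 and 9.05 ± 1.53 at HT (1.97, SE 0.22, 6.9e-06). In mads1 it stood at 9.96 ± 1.71 and 24.7 ± 1.40 at LT (1.29, SE 0.16, 2.4e-05), and at 4.07 ± 0.512 and 6.13 ± 0.647 at HT (0.60, SE 0.18, edgeR adjusted p = 0.016). The last call was lost without mads1_HT_W2.5 replicate 1 or mads1_HT_W3.5 replicate 2. HORVU5Hr1G081090 rose in 3 of the 4, by 0.82 (SE 0.20, edgeR adjusted p = 0.025) in WT at LT, 1.20 (SE 0.29, 0.011) in WT at HT and 1.56 (SE 0.21, 4.4e-05) in mads1 at LT. Its call in WT at LT was lost without replicate 1 or 3 of W2.5 or replicate 1 or 2 of W3.5, and that in WT at HT without either W2.5 library or W3.5 replicate 3. In the fit of all 24 libraries the WT change at HT was -0.33, and WT_HT_W2.5 replicate 3 read 5.60 CPM against 1.32 and 1.58.

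Counted over the set, stage calls were mostly upward, and the share differed by group. In WT at LT 5 of the 30 genes were called higher at W3.5 and none lower, where 2.14% and 1.39% of all tested genes were called higher and lower. In mads1 at LT 11 were called higher and none lower, against 4.19% and 3.39% of all genes. In WT at HT 5 were called higher and 2 lower, against 5.01% and 6.43%, and in mads1 at HT 3 higher and 4 lower, against 14.8% and 14.4%. At an unadjusted p under 0.05 the numbers were 11 at LT and 12 at HT in WT, and 16 and 13 in mads1. The share of all tested genes at an unadjusted p under 0.05 was not counted, so these numbers have no background. Without WT_LT_W2.5 replicate 1 or 3 or WT_LT_W3.5 replicate 2 the number in WT at LT was 2, and without WT_HT_W2.5 replicate 1 or WT_HT_W3.5 replicate 3 that in WT at HT was 4. The median log2 fold change of the 30 genes was 0.24 at LT and -0.11 at HT in WT, and 0.26 and -0.18 in mads1, beside 0.00, 0.00, 0.00 and 0.02 over all genes. In the fit of all 24 libraries, 2, 10, 6 and 5 of the 30 genes were called in WT LT, WT HT, mads1 LT and mads1 HT, against 0.636%, 24.9%, 1.64% and 7.83% of all genes.

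The remaining stage calls were these. In WT at LT the fifth gene was HORVU4Hr1G078540, at 7.53 ± 3.00 and 17.7 ± 3.83 CPM (1.19, SE 0.27, edgeR adjusted p = 0.016), a call lost without W2.5 replicate 1 or 3 or W3.5 replicate 2. In WT at HT, HORVU4Hr1G080590 rose from 4.32 and 3.24 to 11.7, 7.79 and 10.1 CPM (1.37, SE 0.24, edgeR adjusted p = 7.0e-04). With all 24 libraries its change was 0.29 and was not called, and WT_HT_W2.5 replicate 3 read 9.43 CPM. HORVU7Hr1G020800 fell in WT at HT from 3.78 and 1.58 to 0.804, 0.880 and 0.342 CPM (-2.02, SE 0.63, edgeR adjusted p = 0.042). Without W2.5 replicate 1 its change was -1.25 and the call was lost, as it was without any W3.5 library. HORVU6Hr1G012340 fell from 2.04 and 2.26 to 1.42, 0.754 and 0.798 CPM (-1.11, SE 0.35, edgeR adjusted p = 0.043), a call kept only without W3.5 replicate 1.

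In mads1 at LT the 11 genes included the 4 above and HORVU4Hr1G078540. The largest rises there were of HORVU3Hr1G021190, from 7.03, 2.13 and 6.50 to 12.3, 34.4 and 31.1 CPM (2.29, SE 0.38, edgeR adjusted p = 6.0e-04), and of HORVU3Hr1G026540, from 21.6, 11.5 and 21.9 to 41.6, 102 and 122 CPM (2.25, SE 0.35, 2.9e-04). In both genes replicate 1 was the lowest at W3.5 and replicate 2 the lowest at W2.5, and the stages did not overlap. HORVU4Hr1G080590 (0.82), HORVU7Hr1G020770 (1.37), HORVU7Hr1G020780 (1.50) and HORVU7Hr1G020800 (1.75) rose as well. The calls of HORVU7Hr1G020770 and HORVU7Hr1G020800 were lost without W2.5 replicate 2 or W3.5 replicate 2 or 3, and that of HORVU7Hr1G020770 also without W2.5 replicate 3.

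In mads1 at HT 4 genes fell from W2.5 to W3.5. HORVU4Hr1G009140 went from 20.7, 18.6 and 19.5 to 15.6, 12.7 and 8.07 CPM (-0.69, SE 0.17, edgeR adjusted p = 0.0053), HORVU6Hr1G012340 from 1.35, 1.63 and 1.48 to 0.543, 0.445 and 0.265 (-1.80, SE 0.38, 0.0013), and HORVU6Hr1G001510 from 4.10, 4.24 and 6.04 to 2.04, 3.00 and 2.25 (-0.95, SE 0.25, 0.0072). The stages did not overlap in any of these, and the call of HORVU6Hr1G001510 was lost without W2.5 replicate 3. HORVU6Hr1G001160 had 94 reads at W2.5 and 2 at W3.5, a ratio of 45.8 (95% interval 12.3 to 384, counting error only, edgeR adjusted p = 0.0025). Its W2.5 libraries read 2.57, 2.61 and 0.450 CPM.

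**Figure D4:**
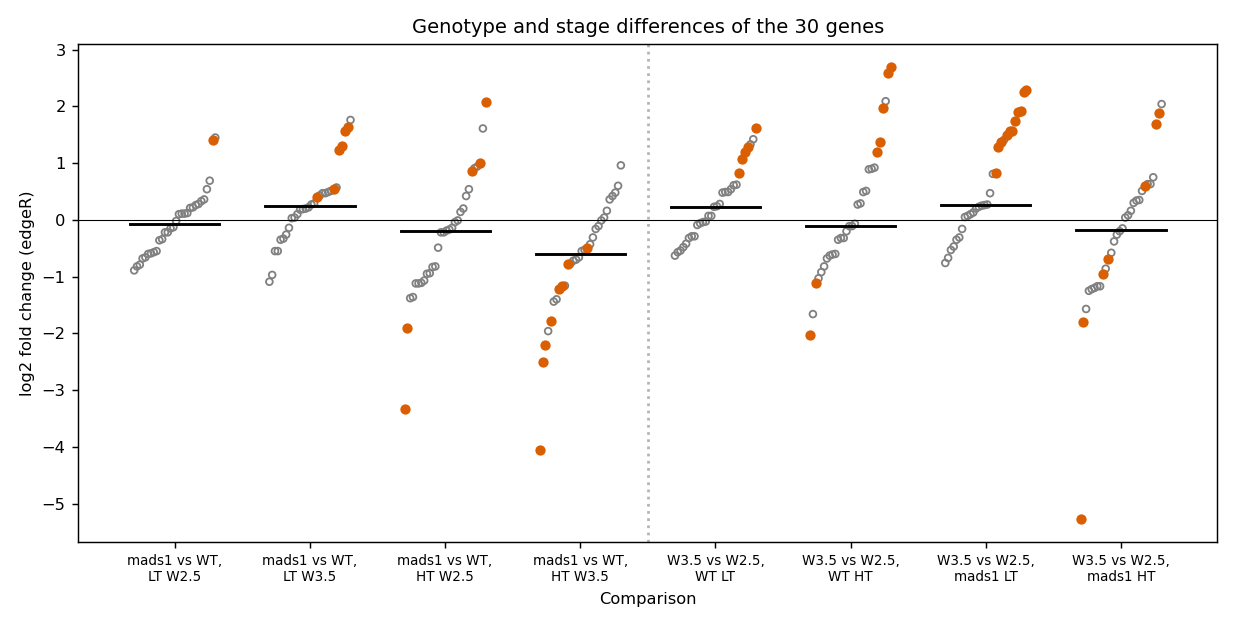
log2 fold changes (edgeR, 23 libraries) of the 30 genes between genotypes (left of the dotted line) and between stages (right). Filled orange points were called at an adjusted p under 0.05, open points were not, and bars are medians. Called points lie only above 0 for mads1 against WT at LT W3.5 (6 genes) and only below 0 at HT W3.5 (8 genes). The same group means entered the ratios that chose the genes.

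Between genotypes, HORVU5Hr1G074170 alone was called at LT W2.5, at 2.62, 2.48 and 2.29 CPM in mads1 and 0.856, 1.06 and 0.955 in WT (log2 change 1.40, SE 0.39, edgeR adjusted p = 0.039). The groups did not overlap, but the call was lost without any 1 of the 6 libraries, and without WT replicate 2 the number called was 3. That is 1 gene higher and none lower, where 2.83% of all genes were called higher and 2.76% lower. At an unadjusted p under 0.05 there were 5 genes, and the median log2 fold change was -0.07 against 0.00 over all genes. With all 24 libraries none was called by edgeR, against 2.27% of all genes, with 2 at an unadjusted p under 0.05. The share of all genes at an unadjusted p under 0.05 was not counted in either fit.

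At LT W3.5, 6 of the 30 genes were higher in mads1 and none lower, against 8.12% and 5.85% of all genes. HORVU3Hr1G026540 read 41.6, 102 and 122 CPM in mads1 against 31.7, 32.4 and 24.9 in WT (1.64, SE 0.34, edgeR adjusted p = 0.0033). HORVU7Hr1G020800 read 7.89, 21.3 and 21.9 against 6.47, 6.76 and 4.89 (1.56, SE 0.41, 0.016). In both, every mads1 library stood above every WT library, with mads1 replicate 1 the nearest to WT. HORVU3Hr1G021190 (1.23, SE 0.36, edgeR adjusted p = 0.028) and HORVU7Hr1G020770 (1.30, SE 0.37, 0.025) were called although mads1 replicate 1 lay within the WT range. HORVU3Hr1G027590 (0.54, SE 0.17, edgeR adjusted p = 0.044) and HORVU4Hr1G003650 (0.40, SE 0.11, 0.021) changed less, with no overlap of the groups.

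Of these 6 calls, that of HORVU3Hr1G026540 was kept whichever library was left out. The call of HORVU3Hr1G027590 was lost without any 1 of the 6 libraries, and those of HORVU3Hr1G021190 and HORVU7Hr1G020770 without any 1 but mads1 replicate 1. HORVU4Hr1G003650 lost its call without WT replicate 1 or 3 or mads1 replicate 2 or 3, and HORVU7Hr1G020800 without WT replicate 3 or mads1 replicate 2 or 3. The number called was 2 without WT replicate 1, 3 without WT replicate 2, and 1 without WT replicate 3 or mads1 replicate 2 or 3. With all 24 libraries none of the 30 was called by edgeR, against 2.42% of all genes. In that fit 7 had an unadjusted p under 0.05 (share of all genes not counted). The median log2 fold change was 0.24, against -0.01 over all genes.

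At HT W3.5, 8 of the 30 genes were lower in mads1 and none higher, against 10.6% and 13.8% of all genes. Calls in either direction made up 26.7% of the 30 genes and 24.4% of all genes. The median log2 fold change was -0.61, against 0.00 over all genes. An unadjusted p under 0.05 was found for 12 of the 30 genes (share of all genes not counted). HORVU3Hr1G026540 read 1.83, 1.61 and 2.18 CPM in mads1 against 12.6, 12.4 and 7.98 in WT (-2.50, SE 0.47, edgeR adjusted p = 8.5e-04). HORVU3Hr1G021190 read 1.70, 1.06 and 1.59 against 5.25, 4.78 and 5.36 (-1.78, SE 0.46, 0.0086). HORVU4Hr1G009140 read 15.6, 12.7 and 8.07 against 24.5, 19.6 and 20.6 (-0.78, SE 0.17, 0.0028). In all 3 the groups did not overlap and the calls were kept whichever library was left out.

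HORVU7Hr1G020780 read 0.475, 0.278 and 1.19 CPM against 3.09, 3.58 and 2.57 at HT W3.5 (-2.21, SE 0.43, edgeR adjusted p = 0.0011), and its change was -3.01 without mads1 replicate 3. HORVU6Hr1G012340 (-1.17, SE 0.40, 0.038), HORVU5Hr1G115880 (-1.21, SE 0.36, 0.047) and HORVU5Hr1G080580 (-0.50, SE 0.17, edgeR adjusted p = 0.036) were lower as well, without overlap. The first 2 stood at low levels, with means of 0.417 CPM in mads1 and 0.991 in WT for HORVU6Hr1G012340, and 0.226 and 0.560 for HORVU5Hr1G115880. HORVU6Hr1G001160 had 2 reads in mads1 and 41 in WT, a ratio of 19.8 (95% interval 5.13 to 169, counting error only, edgeR adjusted p = 0.039), with 1 WT library at 0.0570 CPM within the mads1 range. The call of HORVU5Hr1G115880 was lost without any 1 of the 6 libraries and that of HORVU6Hr1G001160 without any 1 but WT replicate 3. HORVU5Hr1G080580 lost its call without replicate 1 or 3 of either genotype, and HORVU6Hr1G012340 without WT replicate 1 or mads1 replicate 2 or 3. The number called was 4 without WT replicate 1, and 5 without mads1 replicate 2 or 3, and it was 2 with all 24 libraries, against 5.83% of all genes. The library in which HORVU4Hr1G067680 stood apart, mads1 replicate 3, also held 12.7 CPM of HORVU6Hr1G025830, against 1.02 and 1.00 in the other 2.

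At HT W2.5, where WT rests on 2 libraries, 3 of the 30 genes were higher and 2 lower in mads1, against 2.56% and 3.11% of all genes. HORVU7Hr1G020780 read 1.53, 2.03 and 0.899 CPM in mads1 against 5.16 and 6.55 in WT (-1.91, SE 0.38, edgeR adjusted p = 0.0028), a call lost without WT replicate 2. HORVU4Hr1G080590 read 7.29, 8.42 and 6.68 against 4.32 and 3.24 (1.01, SE 0.24, 0.012), a call lost without replicate 2 of either genotype, and with WT replicate 3 kept in the change was -0.06. The groups did not overlap in either gene. HORVU5Hr1G080580 (0.86, SE 0.23, edgeR adjusted p = 0.029) and HORVU3Hr1G076920 (2.07, SE 0.60, 0.049) were higher as well, and HORVU6Hr1G000590 had 4 reads in mads1 against 27 in WT, a ratio of 11.1 (95% interval 3.86 to 43.5, edgeR adjusted p = 0.010). HORVU3Hr1G076920 rested on 54 reads in mads1 and 8 in WT, a ratio of 4.12 (95% interval 1.95 to 10.0, counting error only).

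Without WT replicate 1 the change of HORVU3Hr1G076920 was 2.85, and its call was lost without any 1 of the 5 libraries. HORVU5Hr1G080580 lost its call without WT replicate 1 or mads1 replicate 2 or 3, and HORVU6Hr1G000590 without replicate 2 of either genotype. Without WT replicate 2 or mads1 replicate 2 the number called was 1, and without WT replicate 1 or mads1 replicate 3 it was 3. When WT replicate 3 was kept in, 12 of the 30 were called, against 13.3% of all genes. The median log2 fold change in the 23 libraries was -0.21, against 0.01 over all genes. An unadjusted p under 0.05 was found for 11 of the 30 genes (share of all genes not counted).

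In 17 of the 30 genes the mads1 against WT log2 fold change was above 0 at LT W3.5 and below 0 at HT W3.5, a pattern of signs found in 20.6% of all tested genes. HORVU3Hr1G026540 and HORVU3Hr1G021190 were called in both, higher at LT and lower at HT, as were 1.01% of all genes. The LT and HT libraries of these 2 genes are those behind their ratios of 37.4 and 13.6 in mads1 at W3.5, against 2.62 and 2.13 in WT. The rule asked for a high LT/HT ratio in mads1 at W3.5 and so favours this pattern, and the difference between the temperatures in the effect of the genotype was not tested.

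Several of these genes varied together among replicate libraries, a pattern looked for after the values were seen. In mads1 at LT W3.5, 6 of the 19 genes at 5 CPM or more at LT were lowest in replicate 1 and at least 2-fold higher in the highest library. They were HORVU3Hr1G026540 (41.6, 102 and 122 CPM), HORVU6Hr1G025830 (17.7, 36.4 and 45.3), HORVU3Hr1G021190 (12.3, 34.4 and 31.1) and the 3 adjacent genes HORVU7Hr1G020770 (6.46, 20.2 and 20.7), HORVU7Hr1G020780 (16.0, 31.2 and 33.2) and HORVU7Hr1G020800 (7.89, 21.3 and 21.9). Among the 13110 genes at this level, 49 (0.374%) did the same. All 6 were also highest in WT_LT_W2.5 replicate 3, and all but HORVU7Hr1G020780 were lowest in mads1_LT_W2.5 replicate 2. All 3 features held for 5 of the 19 genes and for 19 (0.145%) of the 13110. The means of these LT groups also entered the rule that chose the genes, so these counts are not independent of the choice. The 3 adjacent genes may be copies of one another, which could not be checked, and so need not count separately. In all, 12 of the 30 genes were lowest in mads1_LT_W3.5 replicate 1, so the 2-fold range sets the 6 apart as well as the order. What set these libraries apart was not tested, and for these 6 genes the genotype and stage values at LT carry this spread.

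**Figure D5:**
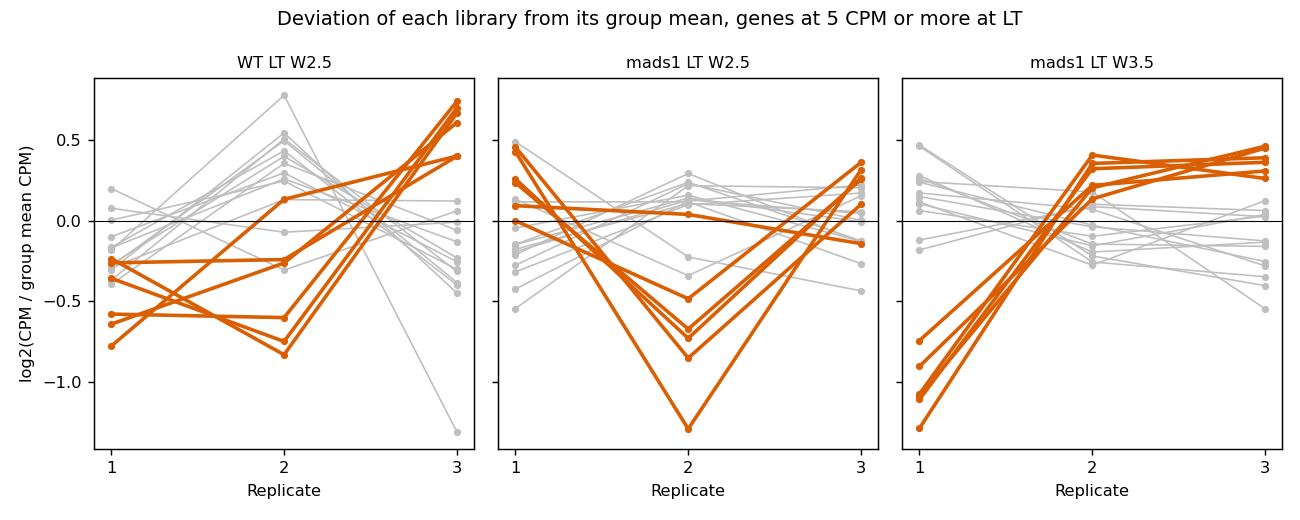
log2 of CPM over the group mean for the 19 genes at 5 CPM or more at LT, in the 3 replicates of 3 LT groups. Lines join the values of a gene and give the replicates no order. The 6 genes in orange are lowest in replicate 1 of mads1 LT W3.5 and highest in replicate 3 of WT LT W2.5, and the grey lines are the other 13, of which some were also lowest in replicate 1 of mads1 LT W3.5 but spread by less than 2-fold.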

How the data were processed

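Per the labels' protocols, libraries were prepared from total RNA of spike pools with a TruSeq kit. Per the submitters' processing notes the authors used HISAT2 and HTSeq, whose versions, genome build, annotation and use of strand no label states, so reads of overlapping genes cannot be told apart. The deposited count table holds whole reads per identifier, as the authors counted them, not normalized. The FPKM values that the authors deposited equal these counts per length and library total, to within a relative 9.9e-08.

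CPM was computed from column totals. Counts were fitted in R 4.3.3 with edgeR 4.0.16 (filterByExpr, TMM scaling, 8 group means, quasi-likelihood F test, Benjamini-Hochberg over 18722 genes) on 23 libraries, without WT_HT_W2.5 replicate 3, as in the rule that chose the genes. Each SE was taken as the absolute log2 fold change divided by the root of its F statistic. The fit was tested on simulated data. The genes, lists, rules and the left-out library were chosen with earlier results of these data known. Genes named in full were the 6 highest at LT, the 4 of largest smallest ratio, those next to the threshold, adjacent identifiers, and up to 2 called higher and 2 lower per contrast with 5 CPM or more and no overlap. Others were named after their values were seen. Alternatives were all 24 libraries, RLE scaling, no filter, DESeq2 1.42.0, a replicate block, limma 3.58.1 on log2(FPKM + 1), only the groups compared, other settings of the rule, and leaving out each library. No replicate was a duplicate. Between 2 libraries of a group the mean squared difference per gene was 2.64 to 438 times that of sampling noise. The 24 pairs compared included those with WT_HT_W2.5 replicate 3. P-values measure the spread between these pools, and intervals and floors cover counting error only.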

Additional observations from a re-analysis of the deposited data

Results flagged for a closer look

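For some genes the libraries of 2 groups did not overlap in one direction and, under the same contrast elsewhere, did not overlap in the other. The values below are differences of group means on the log2(CPM + 0.5) scale. How far the 2 differences lie apart was not tested, and where a single difference was not called by edgeR this is said. HORVU3Hr1G026540 differed between mads1 and WT by 1.56 at LT W3.5 and by -2.27 at HT W3.5, 3.83 apart and both called. From W2.5 to W3.5 in mads1 it differed by 2.24 at LT and by -1.07 at HT, 3.31 apart, and HORVU7Hr1G020800 by 1.67 and -0.66, 2.33 apart. In both genes the difference at HT was not called. In WT, HORVU7Hr1G020780 differed between stages by 0.52 at LT and -0.83 at HT, 1.34 apart, and neither was called. At HT, mads1 differed from WT in HORVU5Hr1G080580 by 0.69 at W2.5 and by -0.53 at W3.5, 1.21 apart and both called. In HORVU4Hr1G009140 these values were 0.16, not called, and -0.81, called, 0.96 apart. Its stage difference at HT was 0.29 in WT, not called, and -0.67 in mads1, called, again 0.96 apart. The temperature ratios of these genes were used to choose them, so the pairs that compare LT with HT are not independent of that choice.

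In the library outside the comparisons, WT_HT_W2.5 replicate 3, HORVU7Hr1G020780 read 82.5 CPM, above every other library of the study, of which the highest read 33.2.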

How the results depend on the processing

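Of 50 gene calls, 25 were kept whichever library was left out and 17 under every alternative. The fit of all 24 libraries lost 26, limma 9, the fit of the compared groups only 6, a replicate block 2, no filter 2, DESeq2 1 and RLE scaling 0. Replicate numbers did not pair the libraries (median r 0.0211 for the same number, -0.542 to 0.494, against -0.0107 for other numbers). With the replicate block 1, 6, 5 and 8 genes were called between genotypes (LT W2.5, LT W3.5, HT W2.5, HT W3.5) and 5, 7, 11 and 7 between stages (WT LT, WT HT, mads1 LT, mads1 HT), as without it.

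Apart from leaving out single libraries, counts moved by more than 1.5 times as follows. With all 24 libraries the genotype counts were 0, 0, 12 and 2 in the order above, and the stage counts 2 in WT LT and 6 in mads1 LT. Limma called 2 at LT W2.5 and 3 at HT W2.5. With the compared groups only, 4 were called at HT W3.5 and 11 in WT HT. Leaving out 1 library gave 0 to 3 (LT W2.5), 1 to 7 (LT W3.5), 1 to 4 (HT W2.5) and 4 to 9 (HT W3.5) between genotypes, and 2 to 7 (WT LT), 4 to 7 (WT HT), 9 to 12 (mads1 LT) and 6 to 10 (mads1 HT) between stages, the last 2 within 1.5 times of the reported counts. With all 24 libraries 2 gene values changed sign: HORVU4Hr1G080590, mads1 against WT at HT W2.5, at -0.06, and HORVU5Hr1G081090, W3.5 against W2.5 in WT at HT, at -0.33. In both, WT_HT_W2.5 replicate 3 read above the other 2 libraries (9.43 and 5.60 CPM).

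The rule kept 72 genes with 0.1 in place of 0.5 CPM added, all 30 among them, 20 with 1 CPM, and 4 at a ratio of 3. Scaling by TMM kept the same 30. Leaving out 1 library kept 25 to 33. The common dispersion was 0.0173 in 23 libraries and 0.0685 in 24. The cause of a change was not tested. For the 11 genes below 5 CPM at LT, few reads at HT limit the ratios. The limit also reaches genes above that level, such as HORVU6Hr1G001160, at 7.85 CPM at LT and 2 reads in mads1 at HT W3.5.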
